A study of Mus musculus with 8 samples.

Results

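Interferon-β, 3 interferon receptor chains and 5 of the transcription factors that carry interferon signals were examined in mouse epithelioid hemangioendothelioma (EHE) cell lines, EHE being a rare cancer of endothelial cells. The 9 genes, Ifnb1, Ifnar1, Ifnar2, Ifngr1, Stat2, Irf1, Irf3, Irf7 and Irf9, were taken by name from a list of interferon genes and are 9 of the 55401 gene identifiers in the count table. RNA with poly(A) tails was sequenced from EHE6 (3 libraries), EHE17 (3 libraries) and EHE26 (2 libraries). The labels give each library a cell line and a replicate number, and name no genotype, treatment, stimulus, time or sex. No interferon was therefore known to have been added or withheld, and the genes were sorted by how far their levels differed between lines, not by a response to a stimulus. The labels do not say whether the replicates of a line were separate cultures or how each line was derived, and the p-values therefore reflect library-to-library spread alone, with each line standing for itself.

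Type I interferons such as interferon-β bind a receptor of 2 chains, IFNAR1 and IFNAR2, and the bound receptor activates the kinases JAK1 and TYK2. These phosphorylate STAT2, which with IRF9 is part of ISGF3, a complex that binds the interferon-stimulated response element (ISRE) of many antiviral genes. Interferon-γ, the type II interferon, uses IFNGR1 and IFNGR2 and acts on many of its target genes through a sequence called GAS. Sensors of foreign nucleic acid act through IRF3 and IRF7 to switch on the Ifnb1 gene, and IRF1 is induced quickly by interferon-γ. In many cell types IRF3 is present at all times, while IRF7 is scarce until an interferon signal arrives.

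The 8 libraries held 44620965 to 96237665 counted reads. They were split by the sign of their score on the first principal component of log2 CPM (counts scaled to library size). This component took 56.2% of the variance. The first set held replicates 1 and 2 of EHE6 and of EHE17. The second set held replicate 3 of EHE6, replicate 3 of EHE17 and both EHE26 libraries. EHE17 replicate 3 scored 41.7, and the other second-set libraries 126 to 148. The sets were thus drawn from these same expression values. The labels name no batch, and since every EHE26 library lay in the second set, that line was also compared within the second set alone. That set holds 1 EHE6, 1 EHE17 and 2 EHE26 libraries, so its p-values take their spread from the EHE26 pair and assume that the lone libraries vary alike. The endothelial markers Pecam1 (1179 to 1675 CPM) and Cdh5 (1056 to 4890 CPM) were high in every library. Other endothelial genes were low in some: Cldn5 stood at 1.05 CPM in EHE6 replicate 3 and at 7.95 and 0.526 CPM in EHE26, against 279 to 770 CPM in the other 5 libraries. EHE6 replicate 3 thus stood apart from the other libraries of its line, and results are given without it where that changed them. In EHE26, 0 of 10 endothelial markers had a positive log2 fold change against either other line. Their median was -1.59 against EHE6 and -1.68 against EHE17, beside -0.11 for all tested genes in both. Of the 10, 0 passed the test described below.

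Of the 9 genes, 4 were steady across the lines, 3 depended on the line, Irf1 lay in between and Ifnb1 had too few reads to test. Genes counted as steady were Ifnar1, Ifnar2, Ifngr1 and Irf3, for which no comparison was called and the highest line mean over all libraries was under 2 times the lowest. Within the second set the 3 receptor genes differed by more than that, as given with each. Line-dependent genes were Stat2, Irf9 and Irf7, all highest in EHE26. A gene was called when its edgeR quasi-likelihood p, adjusted by the Benjamini-Hochberg method over all 18882 tested genes, was below 0.05 and its log2 fold change was at least 1 in size. In EHE26 against EHE6, 3 of the 8 tested members were called, all higher, where 1.26% of all tested genes were called and 1.1% were called higher. In EHE26 against EHE17, 2 of 8 were called, Irf7 and Stat2, both higher, where 1.08% of tested genes were called and 0.89% called higher. In EHE17 against EHE6, edgeR called 0 of 8 and 0.143% of tested genes; Irf9 was the 1 member with an unadjusted p below 0.05, and the 1 member that DESeq2 called. The comparisons share libraries, so they are not independent of each other. Members and gene lists were chosen with earlier results of these data known, so the shares beside them are a description and no test. Shares of all tested genes at an unadjusted p below 0.05, or called by DESeq2, were not counted. Counts of either kind, here and below, therefore have no background beside them. Levels are CPM scaled by TMM factors, and levels of different genes are compared only per kilobase (kb) of exon. Since these are bulk libraries, a level per library cannot show whether more cells or more RNA per cell lay behind it.

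**Figure D1:**
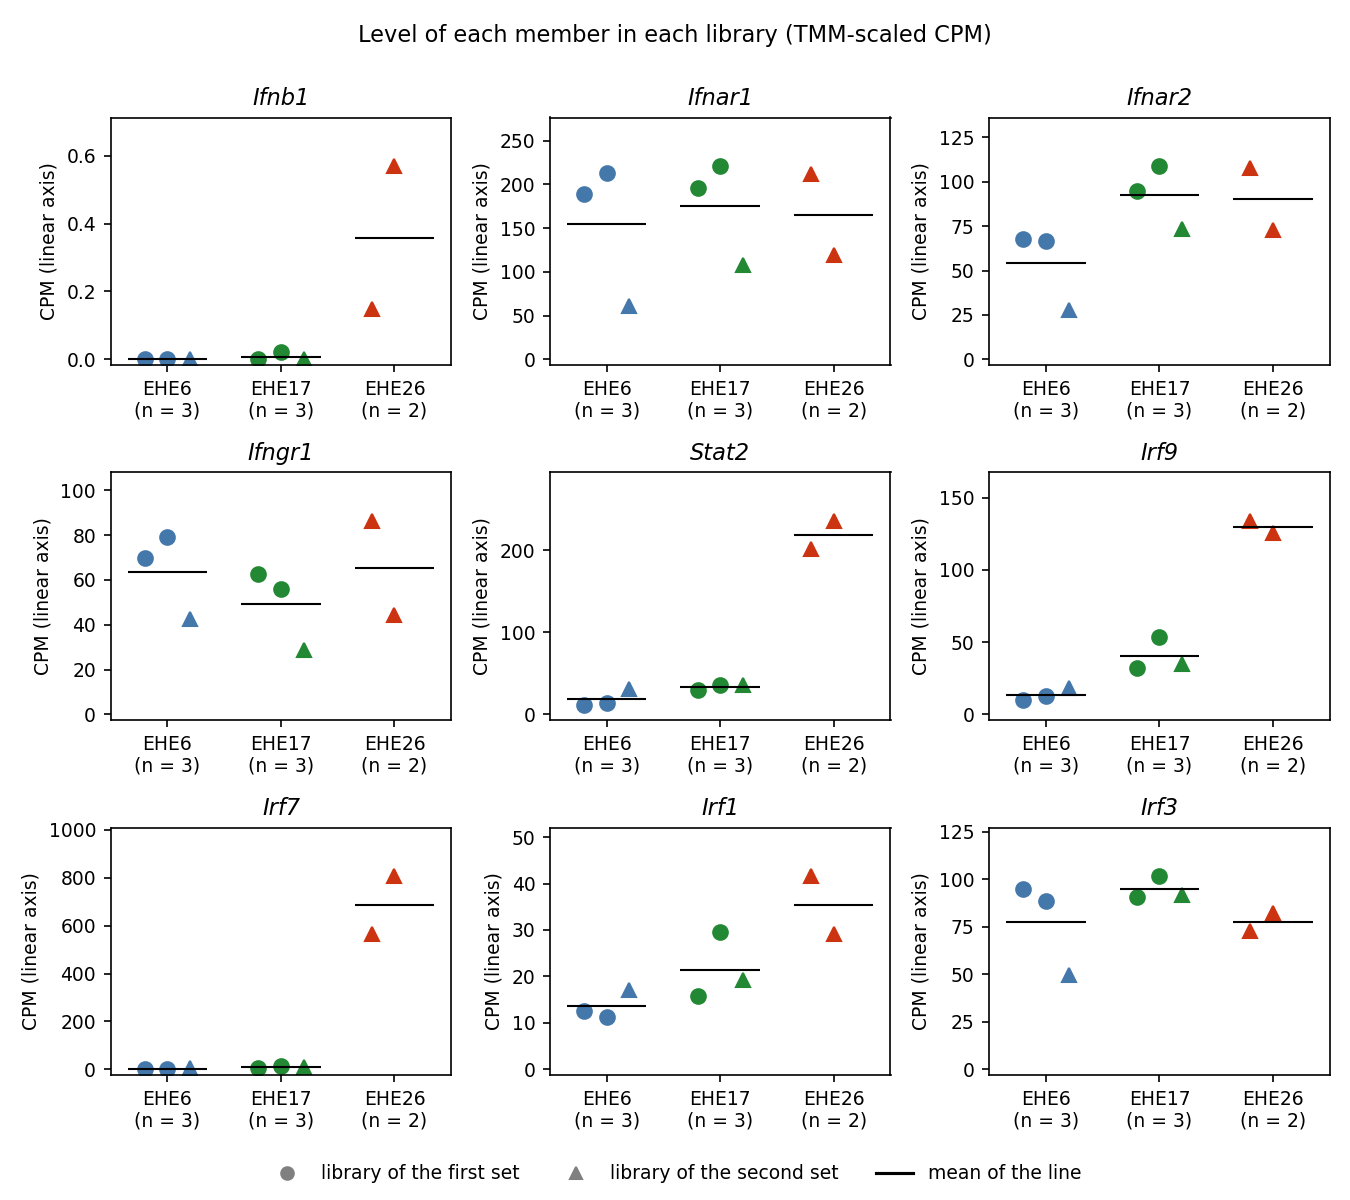
Level of each of the 9 genes in each library, in TMM-scaled CPM on a linear axis that differs between panels; points are libraries, coloured by line and shaped by library set, and the bar is the line mean. Both EHE26 libraries sit far above the other 6 for Irf7, Stat2 and Irf9, and Ifnar1, Ifngr1 and Irf3 show no such gap.

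Ifnb1 (chr4:88522025-88522774 in GRCm38, minus strand), the gene for interferon-β, was read only 36 times in the 8 libraries. There were no reads in the 3 EHE6 libraries, 0, 2 and 0 reads in EHE17, and 8 and 26 reads in EHE26. The EHE26 counts came to 0.147 CPM (exact 95% Poisson interval 0.0635 to 0.290) and 0.570 CPM (0.372 to 0.835), so the EHE26 libraries themselves differed beyond counting error. The intervals cover counting error alone. Pooled by line, EHE26 stood at 0.340 CPM (0.236 to 0.475) and EHE17 at 0.00906 CPM, a ratio of 37.5 with a counting interval of 9.62 to 322. Against EHE6, where a count of 0 allows up to 3 counts over the pooled line or 0.0156 CPM, EHE26 was at least 21.8-fold higher; this bound took the EHE26 counts as read and was 9.45-fold without EHE26 replicate 2 and 36.6-fold without EHE26 replicate 1. Ifnb1 did not pass the filter on low counts, and when every gene with a read was fitted its adjusted p was 0.0871 for EHE26 against EHE6, 0.151 for EHE26 against EHE17 and 0.934 for EHE17 against EHE6. The reads show that transcripts of the ligand were detectable in both EHE26 libraries at this depth, without a difference between lines past the test. Among 20 other interferon ligand genes (the α genes, the other type I genes, the λ genes and Ifng), 19 had no read in any library and Ifnz had 36 reads over the 8 libraries.

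Ifnar1 (chr16:91485238-91507441, plus strand) encodes one chain of the type I receptor. It was read at 189, 213 and 60.7 CPM in EHE6, 196, 221 and 108 CPM in EHE17, and 211 and 119 CPM in EHE26. The line means were 154 ± 82.1 (SD, n = 3), 175 ± 59.2 (n = 3) and 165 ± 65.2 CPM (n = 2), and the libraries of the 3 lines overlapped. The spread lay within the lines: the second-set library of EHE6 stood at 0.301 times, and that of EHE17 at 0.519 times, the mean of the first-set libraries of its line. The log2 fold change of EHE26 against EHE6 was 0.10 with a 95% confidence interval of -1.19 to 1.38, so a difference of either sign and of over 1 on the log2 scale remains possible. It was 1.16 (adjusted p = 0.235) with the library set as a term and 1.44 (adjusted p = 0.172) in the second set alone, and was not called in either.

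Ifnar2 (chr16:91372783-91405589, plus strand) encodes the other chain and lies in the same cluster on chromosome 16, where the order is Ifnar2, Il10rb, Ifnar1, Ifngr2. Its levels were 67.9, 66.6 and 27.9 CPM in EHE6, 94.8, 109 and 73.5 CPM in EHE17, and 107 and 72.6 CPM in EHE26. Every EHE17 and EHE26 library lay above every EHE6 library, an order that 7.25% of tested genes showed upward for EHE17 and 16.0% for EHE26. The line means were 54.1 ± 22.7 (SD, n = 3), 92.4 ± 17.8 (n = 3) and 90.0 ± 24.6 CPM (n = 2). Neither difference from EHE6 passed the test: the log2 fold change was 0.77 ± 0.37 (SE, adjusted p = 0.774) for EHE17 and 0.73 ± 0.41 (adjusted p = 0.413) for EHE26. The latter was 1.40 (adjusted p = 0.114) with the library set as a term and 1.69 (adjusted p = 0.0969) in the second set alone, where EHE17 differed from EHE6 by 1.40 (adjusted p = 0.131). Ifnar2 shares 315 exon bases, 9.46% of its exons, with the predicted gene Gm21970, which had no reads. Over the 8 libraries the root mean square gap between the centred log2 levels of the 2 chains was 0.34, beside 0.40 between Ifnar2 and Irf3 and 0.42 between Ifnar1 and Ifngr1.

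Ifngr1 (chr10:19591949-19610229), the chain of the type II receptor that binds interferon-γ, was read at 69.9, 79.1 and 42.4 CPM in EHE6, 62.6, 56.0 and 28.9 CPM in EHE17, and 86.4 and 44.4 CPM in EHE26. The lines overlapped, with means of 63.8 ± 19.1 (SD, n = 3), 49.1 ± 17.8 (n = 3) and 65.4 ± 29.7 CPM (n = 2). Its log2 fold change of EHE26 against EHE6 was 0.04 (95% confidence interval -0.99 to 1.06). Against EHE17 it was 0.41 in all libraries, 1.10 (adjusted p = 0.214) with the library set as a term and 1.18 (adjusted p = 0.278) in the second set alone, and was not called in any of the 3. Per kb of exon, the 3 receptor chains had similar levels: in EHE26 Ifnar1 stood at 27.8, Ifnar2 at 27.0 and Ifngr1 at 23.0 CPM per kb, and in EHE6 they stood at 26.0, 16.3 and 22.4 CPM per kb. All 3 chains were thus present in all 3 lines, including those in which the transcription factors below were low.

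Stat2 (chr10:128270559-128292849) encodes the STAT of ISGF3 that is particular to interferon signalling. It was read at 11.4, 14.3 and 31.2 CPM in EHE6, 29.2, 36.3 and 35.6 CPM in EHE17, and 201 and 236 CPM in EHE26. Both EHE26 libraries lay above all 6 others, an order that 16.0% of tested genes showed against EHE6 and 18.7% against EHE17, and EHE6 replicate 3 lay among the EHE17 libraries. Against EHE6 the log2 fold change of EHE26 was 3.53 ± 0.43 (SE, adjusted p = 0.00931), or 11.5-fold, and against EHE17 it was 2.70 ± 0.42 (adjusted p = 0.0327), or 6.49-fold. In the second set alone, where EHE6 and EHE17 have 1 library each and the spread is that of the EHE26 pair, these differences were 2.81 (adjusted p = 0.0270) and 2.62 (adjusted p = 0.0234). The first call was lost without EHE26 replicate 2 (adjusted p = 0.0659), without EHE6 replicate 2 (0.0561) and when only EHE26 and EHE6 were fitted (0.0589). The call against EHE17 held without EHE6 replicate 1 (0.0350) or EHE6 replicate 3 (0.00148), and was lost without any 1 of the other 6 libraries, with adjusted p between 0.0562 and 0.205. EHE17 differed from EHE6 by 0.83 ± 0.38 (adjusted p = 0.749).

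Irf9 (chr14:55603571-55610030), the DNA-binding subunit of ISGF3, was the only member whose 3 lines formed a series without overlap. Its levels were 10.2, 12.4 and 18.1 CPM in EHE6, 32.1, 53.7 and 34.7 CPM in EHE17, and 134 and 126 CPM in EHE26. The means were 13.6 ± 4.08 (SD, n = 3), 40.2 ± 11.8 (n = 3) and 130 ± 5.96 CPM (n = 2). Of all tested genes, 7.25% lay higher without overlap in EHE17 against EHE6. The shares were 16.0% in EHE26 against EHE6 and 18.7% in EHE26 against EHE17. How many tested genes formed the whole series was not counted. EHE26 exceeded EHE6 by a log2 fold change of 3.26 ± 0.34 (SE, adjusted p = 0.00508), or 9.55-fold, and this call held in all 8 fits that left out a library. In the second set alone, with its single EHE6 library, the difference was 2.84 (adjusted p = 0.0256). The 2 other steps of the series did not pass the test: EHE17 against EHE6 was 1.56 ± 0.31 (adjusted p = 0.160; unadjusted p = 0.000918) and EHE26 against EHE17 was 1.69 ± 0.33 (adjusted p = 0.0647). The last of these was called by DESeq2 (adjusted p = 0.00049), with no filter on low counts (0.0235), with the replicate number as a block (1.79, 0.0258), when only those 2 lines were fitted (0.0316), without EHE6 replicate 3 (0.0136) and in the second set alone, with its single EHE17 library (1.90, 0.0323). It was not called with RLE size factors (adjusted p = 0.0641), with the library set as a term (0.125) or without any 1 of the other 7 libraries (0.0885 to 0.339). The replicate block set the second-set EHE26 libraries against first-set EHE17 libraries, so its call does not separate the line from the set. Irf9 shares 123 exon bases with its neighbour Rnf31 on the same strand, 2.28% of its exon length, and Rnf31 stood at 30.6, 37.5 and 55.0 CPM in the 3 lines.

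Stat2 and Irf9, 2 subunits of one complex, were also compared by their ratio. The ratio of Irf9 to Stat2 per kb was 0.732 and 0.586 in EHE26, below the 1.07 to 1.63 of EHE17, while EHE6 gave 0.992, 0.955 and 0.639.

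**Figure D2:**
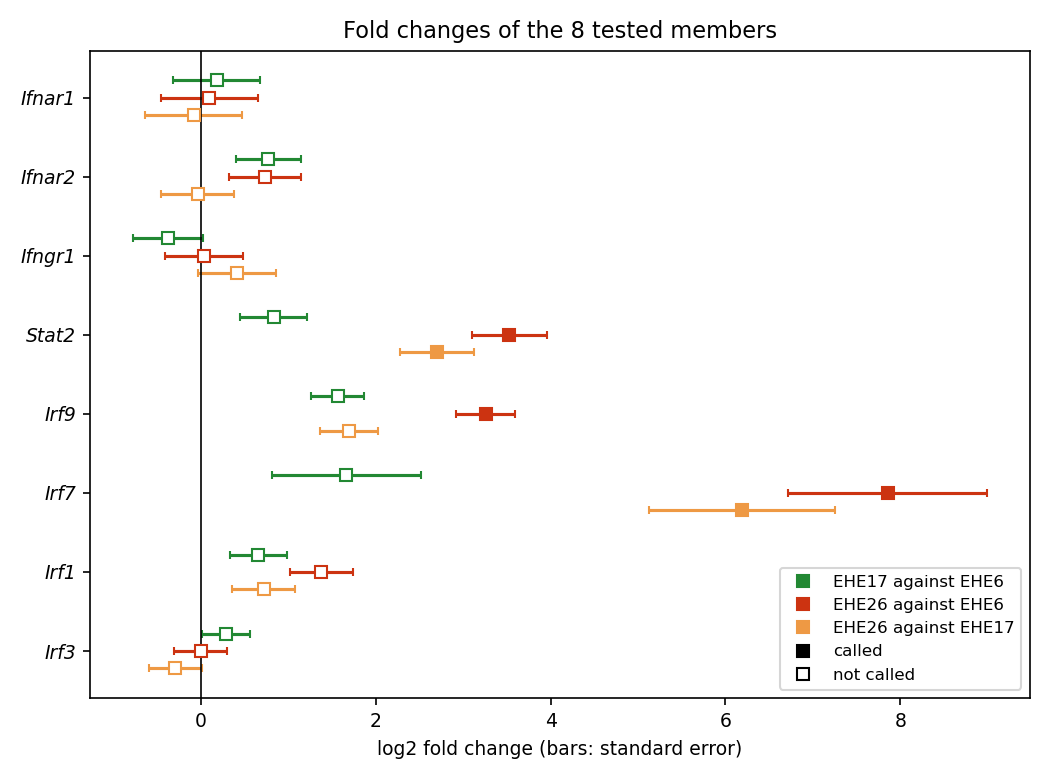
Log2 fold change of the 8 tested members in the 3 comparisons, with bars of 1 standard error on each side; filled squares mark calls. Irf7, Stat2 and Irf9 stand to the right in both comparisons with EHE26, and the intervals of Ifnar1, Ifngr1 and Irf3 lie around 0.

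Irf7 (chr7:141262706-141266481, minus strand), the factor that amplifies type I interferon production, had the largest differences of the 8 tested genes. It was read at 1.12, 0.677 and 7.16 CPM in EHE6, 4.96, 15.4 and 7.80 CPM in EHE17, and 566 and 808 CPM in EHE26. EHE6 replicate 3 stood at 7.98 times the mean of the other 2 EHE6 libraries and lay within the range of EHE17. Both EHE26 libraries lay far above all the rest, where 16.0% of tested genes lay higher without overlap against EHE6 and 18.7% against EHE17. EHE26 exceeded EHE6 by a log2 fold change of 7.85 ± 1.14 (SE, adjusted p = 0.0202), or 232-fold, and exceeded EHE17 by 6.19 ± 1.06 (adjusted p = 0.0424), or 73.0-fold. By log2 fold change against EHE6, Irf7 ranked 35 from the highest of 18882 tested genes, where Stat2 ranked 331 and Irf9 395. In the second set alone, again against 1 library of each other line, the differences were 6.58 (adjusted p = 0.0156) and 6.46 (0.0173). With a term for the library set added to the fit, the difference from EHE17 was 4.90 and no longer passed (adjusted p = 0.0939).

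Over the 8 fits that each left out a library, the log2 fold change against EHE6 of Irf7 lay between 7.38 and 9.58, while its call came and went. The call against EHE6 was lost without EHE17 replicate 2 (adjusted p = 0.0503), EHE26 replicate 1 (0.0629), EHE26 replicate 2 (0.0784), EHE6 replicate 1 (0.101) or EHE6 replicate 2 (0.0558), and when only EHE26 and EHE6 were fitted (0.0789). The call against EHE17 held only without EHE6 replicate 2 (0.0391) or EHE6 replicate 3 (0.00166), and the other 6 fits gave adjusted p between 0.0633 and 0.197. Irf7 shares 45 exon bases with Phrf1 on the opposite strand; Phrf1 stood at 90.9, 89.5 and 73.5 CPM in EHE6, EHE17 and EHE26, and was not higher in EHE26.

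Irf1 (chr11:53770014-53778374), a factor induced by interferon-γ, differed between lines by less than the 3 genes above. Its levels were 12.5, 11.2 and 17.2 CPM in EHE6, 15.7, 29.6 and 19.1 CPM in EHE17, and 41.7 and 29.1 CPM in EHE26. EHE26 lay above EHE6 without overlap, an order that 16.0% of tested genes showed, but overlapped EHE17. The log2 fold change of EHE26 against EHE6 was 1.38 (95% confidence interval 0.54 to 2.21), with an unadjusted p of 0.0052 and an adjusted p of 0.151, so it did not pass over all genes. It passed with DESeq2 (adjusted p = 0.0165) and without EHE6 replicate 3 (1.58, adjusted p = 0.0469). The line means of 13.6 ± 3.13, 21.5 ± 7.25 (SD, n = 3 each) and 35.4 ± 8.87 CPM (n = 2) differed by a factor of 2.60 from lowest to highest, which placed Irf1 between the steady and the line-dependent genes.

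Irf3 (chr7:44997648-45002848), the factor that sensors activate by phosphorylation without new transcription, had line means within a factor of 1.22, the smallest such ratio of the 4 IRF members. It was read at 94.9, 88.4 and 49.6 CPM in EHE6, 90.7, 102 and 92.0 CPM in EHE17, and 72.8 and 82.1 CPM in EHE26. The 2 EHE26 libraries lay below all 3 EHE17 libraries, as 20.3% of tested genes did, and within the range of EHE6. Its log2 fold change of EHE26 against EHE6 was -0.0026 with a 95% confidence interval of -0.71 to 0.70, which in this fit leaves out a change as large as the threshold of 1 in either direction. Within the second set alone EHE26 stood 0.64 above EHE6 on the log2 scale; EHE6 is there represented by replicate 3 alone, the library with the lowest Irf3.

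The difference between EHE17 and EHE6 in Irf7, Stat2 and Irf9 took other values in other subsets of the libraries. Without EHE6 replicate 3, the differences of EHE17 from EHE6 grew to 3.40 for Irf7 (adjusted p = 0.0818), 1.41 for Stat2 (0.0818) and 1.85 for Irf9 (0.0770). Within the first set alone they were 3.52 (adjusted p = 0.0904), 1.37 (0.121) and 1.94 (0.0830), and in the second set, with 1 library of each of those lines, assumed to vary like EHE26, 0.12 (0.887), 0.19 (0.753) and 0.93 (0.140). The gap between EHE17 and EHE6 in these 3 genes was thus larger between first-set libraries than between second-set libraries, a difference that was not tested.

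Among the 9 interferon regulatory factors, the order of levels per kb of exon changed between lines. In EHE6 Irf3 was highest at 22.5 ± 7.12 CPM per kb (SD, n = 3), followed by Irf8 at 13.3 ± 11.0, Irf2 at 6.72 ± 0.512, Irf1 at 3.43 ± 0.787, Irf9 at 2.52 ± 0.758 and Irf7 at 0.791 ± 0.960. Irf3 and Irf8, and Irf8 and Irf2, were neighbours in that order that did not differ beyond their spread, and Irf1 exceeded Irf9 in each of the 3 libraries. In EHE17 the first 2 places were the same, with Irf3 at 27.6 ± 1.77, and Irf9 (7.46 ± 2.19) and Irf2 (7.42 ± 1.12) did not differ beyond their spread. In EHE26 Irf7 was highest at 182 ± 45.3 CPM per kb (n = 2), and Irf9 at 24.1 ± 1.11 and Irf3 at 22.5 ± 1.91 differed by less than the SD of Irf3. The ratio of Irf7 to Irf3 per kb was 0.0107, 0.00699 and 0.132 in EHE6, 0.0498, 0.138 and 0.0774 in EHE17, and 7.09 and 8.97 in EHE26. In each of the 6 libraries of EHE6 and EHE17 Irf3 exceeded Irf7, and in both EHE26 libraries Irf7 exceeded Irf3.

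**Figure D3:**
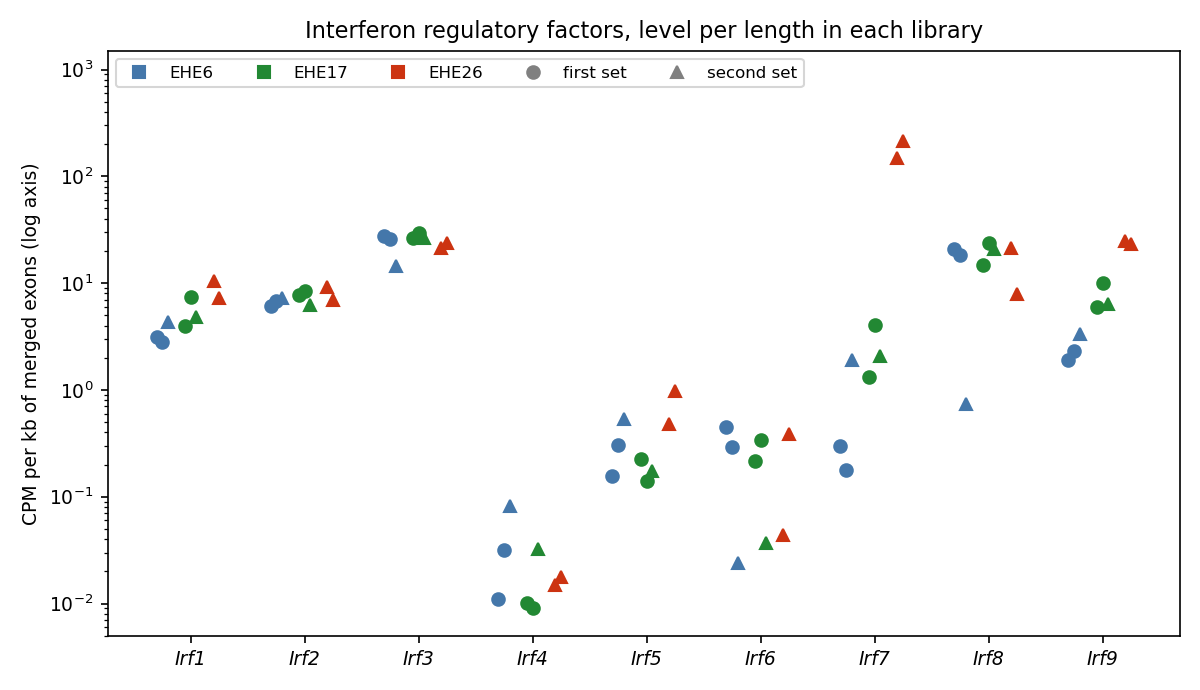
Level of the 9 interferon regulatory factor genes in CPM per kb of merged exons on a log axis; each point is a library, coloured by line and shaped by library set. Irf7 moves from the lower part of the family in EHE6 to above every other member in both EHE26 libraries, and Irf3 and Irf2 show no such shift.

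Promoter sequences are shown for 4 members that differ in their levels, to set their letters beside those levels: Stat2 and Irf7, called in EHE26, Irf1, which lay in between, and Ifnb1, the ligand. They are from RefSeq on GRCm38.p6, 5′ to 3′ on the strand of the gene, without the bases that the gene annotation places in exons. The Ifnb1 stretch was also cut after 180 bases, ahead of bases taken to be transcribed. The annotated gene, chr4:88522025-88522774, does not reach those bases. Capitals mark a match to one of 3 motifs searched on both strands in the 250 bases before the start: ISRE as GAAA, any 2 bases and GAAA, GAS as TTC, any 3 bases and GAA, and a κB site as GGG, any 3 bases and TTCC. The Stat2 stretch is chr10:128270248-128270497 (plus strand), Irf7 is chr7:141266482-141266674 (minus strand), Irf1 is chr11:53769764-53770013 (plus strand) and Ifnb1 is chr4:88522865-88523044 (minus strand).
Stat2: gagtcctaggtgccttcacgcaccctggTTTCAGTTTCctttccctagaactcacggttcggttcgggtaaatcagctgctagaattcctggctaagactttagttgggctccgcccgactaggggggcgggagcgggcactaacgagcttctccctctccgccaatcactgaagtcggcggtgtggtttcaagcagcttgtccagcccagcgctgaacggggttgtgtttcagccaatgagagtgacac
Irf7: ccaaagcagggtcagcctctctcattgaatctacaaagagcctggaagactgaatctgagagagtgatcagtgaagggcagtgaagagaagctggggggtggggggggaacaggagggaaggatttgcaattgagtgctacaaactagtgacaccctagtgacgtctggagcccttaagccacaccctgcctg
Irf1: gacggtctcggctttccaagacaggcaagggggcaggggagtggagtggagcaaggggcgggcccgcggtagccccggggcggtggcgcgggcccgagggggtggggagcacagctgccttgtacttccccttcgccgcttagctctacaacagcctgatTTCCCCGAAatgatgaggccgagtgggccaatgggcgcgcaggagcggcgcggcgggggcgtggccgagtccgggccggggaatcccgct
Ifnb1: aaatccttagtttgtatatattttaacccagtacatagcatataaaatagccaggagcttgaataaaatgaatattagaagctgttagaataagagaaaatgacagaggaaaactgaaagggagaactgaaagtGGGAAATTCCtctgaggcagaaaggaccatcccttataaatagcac

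All 9 members had a RefSeq promoter, 11 windows in all because Irf1 and Irf9 have 2 each. Stat2 held an ISRE match, TTTCAGTTTC, read on the opposite strand 222 bases before its start. Irf1 held the GAS match TTCCCCGAA 90 bases before its start, and Ifnar2, whose level was steady, held the GAS match TTCCTGGAA 214 bases before its start. Ifnb1 held the κB match GGGAAATTCC 116 bases before its RefSeq start. Bases taken to be transcribed lie before that start, so the distance from the start of transcription may differ. In the windows of Irf7, Irf9, Irf3, Ifngr1 and Ifnar1 none of the 3 patterns was found. Both Irf9 windows (chr14:55603735-55604034 and chr14:55604329-55604628) lie past the annotated start of the gene at 55603571. The bases before that annotated start were therefore not searched. Over all 32817 mouse promoter windows the ISRE pattern occurred in 2.97%, GAS in 7.01% and the κB pattern in 4.65%. Matches were therefore present in the windows of line-dependent and of steady members, and absent from the windows of others of each kind. A match is a description of letters and not of binding.

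Of 66 other genes of interferon signalling (ligands, receptors and kinases, other STATs, other IRFs, feedback regulators and activators of IRF3 and IRF7), 45 could be tested, and 0, 3 and 3 were called in EHE17 against EHE6, EHE26 against EHE6 and EHE26 against EHE17. In each comparison with EHE26 the 3 made up 6.67% of the 45, beside 1.26% and 1.08% of all tested genes. They were the same genes in both comparisons with EHE26, all higher, and Usp18 and Ifih1 among them are described here. The median log2 fold change of the 45 was 0.03, 0.19 and 0.12, beside -0.03, -0.11 and -0.11 for all tested genes. In EHE17 against EHE6 4 of the 45 had an unadjusted p below 0.05 and DESeq2 called 2. Without the shares of all tested genes, these 2 counts do not set the list apart. In that comparison Usp18 differed by 2.68 and Ifih1 by 1.20 on the log2 scale. In EHE26 against EHE17 the count was 6 with the replicate number as a block, 7 without EHE6 replicate 3, 1 without EHE26 replicate 1 and 0 without EHE26 replicate 2, EHE17 replicate 1 or EHE17 replicate 2. In EHE26 against EHE6 it was 6 without EHE6 replicate 3.

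Usp18, which encodes the protein that binds IFNAR2 and dampens its signal, stood at 0.871 ± 0.713 CPM in EHE6 (SD, n = 3), 5.51 ± 3.49 in EHE17 (n = 3) and 188 ± 37.6 in EHE26 (n = 2). Its log2 fold change of EHE26 was 7.77 ± 0.87 (SE, adjusted p = 0.00604) against EHE6 and 5.10 ± 0.77 (adjusted p = 0.0299) against EHE17. It was the 1 of 12 feedback regulators called, and its call against EHE6 was lost without EHE6 replicate 1 (adjusted p = 0.0523). Its call against EHE17 held without EHE17 replicate 3 (0.0401), EHE6 replicate 2 (0.0357) or EHE6 replicate 3 (0.00311) and was lost without any 1 of the other 5 libraries. Socs1, another inhibitor of the kinases, was higher on average in EHE26 at 4.55 ± 0.508 CPM against 1.22 ± 0.332 and 0.839 ± 0.373, and was not called.

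Ifih1, the gene of the RNA sensor MDA5, which acts upstream of IRF3 and IRF7, stood at 4.43 ± 2.69 CPM in EHE6 (SD, n = 3), 10.2 ± 0.799 in EHE17 (n = 3) and 122 ± 12.0 in EHE26 (n = 2). Its log2 fold change of EHE26 was 4.79 ± 0.47 (SE, adjusted p = 0.00377) against EHE6 and 3.59 ± 0.45 (adjusted p = 0.0138) against EHE17. The call against EHE17 was lost without EHE17 replicate 1 (adjusted p = 0.100), EHE17 replicate 2 (0.0975), EHE26 replicate 1 (0.0829) or EHE26 replicate 2 (0.0968). The other 15 tested activators were not called, among them Tbk1, the kinase that phosphorylates IRF3, at 51.7 ± 14.1, 56.9 ± 17.1 and 59.1 ± 2.85 CPM.

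Of the 6 other receptor and kinase genes, 0 were called in any comparison by edgeR; 1, Jak1, had an unadjusted p below 0.05, in EHE26 against EHE17. Jak1 stood at 365 ± 132, 569 ± 217 and 276 ± 20.1 CPM in EHE6, EHE17 and EHE26, Tyk2 at 43.1 ± 3.18, 58.7 ± 8.48 and 54.1 ± 9.09 CPM, and Jak2 at 66.5 ± 13.6, 63.7 ± 28.8 and 108 ± 7.86 CPM. Ifngr2, the partner of Ifngr1, stood at 73.9 ± 34.5, 99.3 ± 27.9 and 113 ± 3.95 CPM. Kinases and receptor chains were thus read in every library. The 5 other IRFs were not called, with 0 calls by edgeR and 1 at an unadjusted p below 0.05, in EHE26 against EHE17. Irf2 stood at 49.7 ± 3.78, 54.9 ± 8.30 and 59.6 ± 12.0 CPM and Stat3 at 92.2 ± 30.0, 113 ± 34.8 and 109 ± 5.55 CPM.

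**Figure D4:**
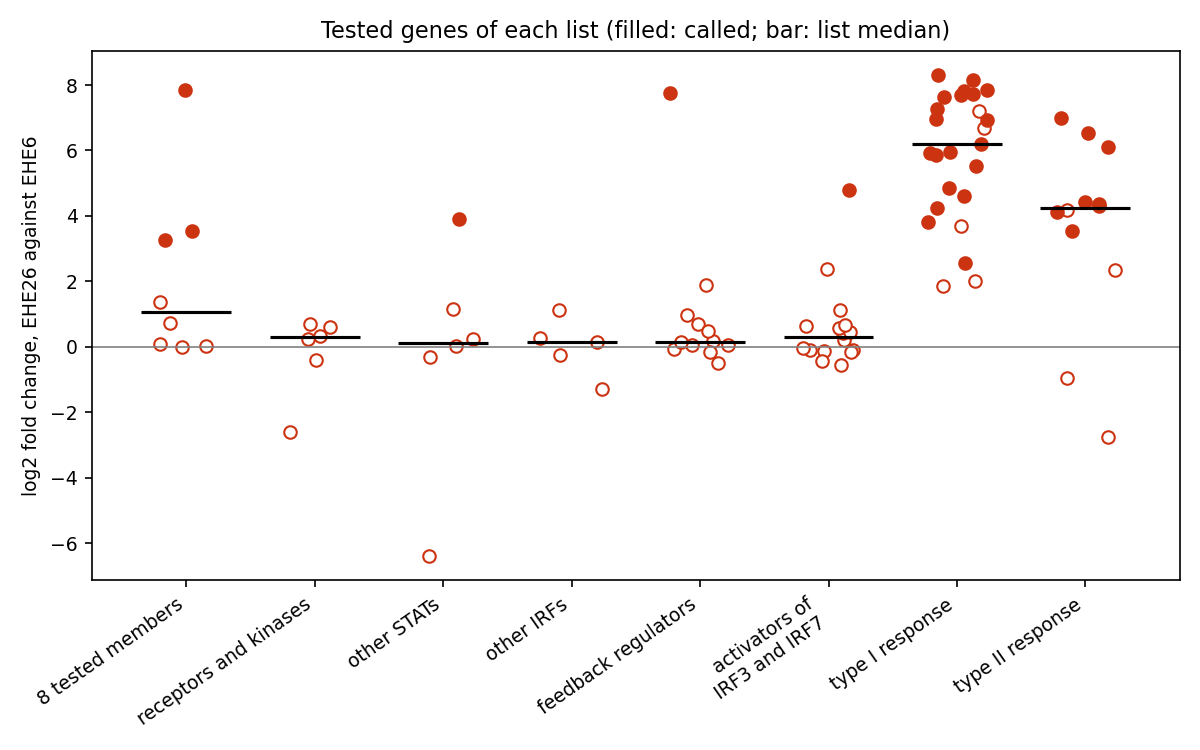
Log2 fold change of EHE26 against EHE6 for the tested genes of each list; each point is a gene, filled where called, and the bar is the list's median. Receptors, kinases, other STATs and other IRFs lie mostly near 0, with Usp18 and Ifih1 as the filled points of the feedback and activator lists, and all 25 type I response genes lie above 0.

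Genes that interferon induces in other cells were read beside the factors. Of 25 type I response genes, all tested, 1 was called in EHE17 against EHE6, 20 in EHE26 against EHE6 and 16 in EHE26 against EHE17, all higher, with median log2 fold changes of 1.32, 6.19 and 4.75. Of all tested genes 0.143%, 1.26% and 1.08% were called in these comparisons, with medians of -0.03, -0.11 and -0.11. Oas3, an antiviral synthetase, rose by 8.15 ± 0.92 (SE, adjusted p = 0.00638) in EHE26 over EHE6 and Ifi44 by 8.31 ± 0.63 (adjusted p = 0.00159). Ifi44 was the 1 gene called in EHE17 against EHE6 (3.96 ± 0.51, adjusted p = 0.0439). That call was lost in 7 of the 8 fits that left out a library, and held in the fit without EHE6 replicate 3 (adjusted p = 0.0240), where 4 genes were called. The count of 20 fell to 10 without EHE6 replicate 1. The count of 16 was 0 without EHE17 replicate 1 or EHE17 replicate 2, 7 without EHE26 replicate 1 and 2 without EHE26 replicate 2. Of 12 type II response genes, 2 were called in EHE17 against EHE6 (Gbp3 and Nlrc5), 8 in EHE26 against EHE6 and 6 in EHE26 against EHE17, all higher, with medians of 1.37, 4.24 and 2.62. The shares and medians of all tested genes are those given above. The count of 6 was 0 without EHE17 replicate 2 and 1 without EHE17 replicate 1, EHE26 replicate 1 or EHE26 replicate 2. The count of 2 was 1 without EHE6 replicate 3 and 0 without any 1 of the other libraries except EHE17 replicate 3. Gbp3, a guanylate-binding GTPase, stood at 1.68 ± 0.280, 9.16 ± 2.13 and 117 ± 11.0 CPM, and Nlrc5, the activator of MHC class I genes, at 0.676 ± 0.0960, 11.4 ± 7.37 and 63.0 ± 8.40 CPM. Many of these genes answer to both interferon types, so the 2 lists are not separate readouts.

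The median of the 25 type I response genes was read in each library beside the factors. It was 1.02, 0.663 and 3.63 CPM in EHE6, 4.20, 6.05 and 3.77 CPM in EHE17, and 138 and 167 CPM in EHE26. Their summed level was 469, 390 and 541 CPM in EHE6, 575, 893 and 1192 CPM in EHE17, and 5979 and 5994 CPM in EHE26. Both EHE26 libraries lay above the other 6 by either measure, while the order of the EHE17 libraries differed between median and sum. These 8 values share their libraries and fall into 2 clusters, so no correlation is given.

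**Figure D5:**
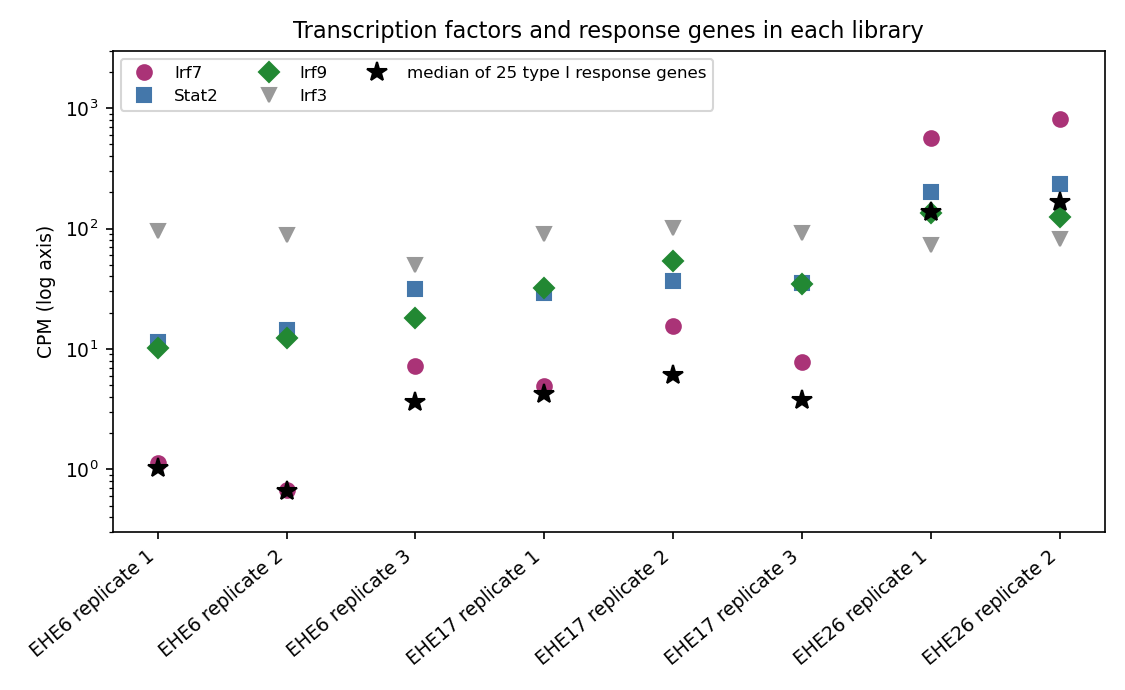
Irf7, Stat2, Irf9 and Irf3 and the median of the 25 type I response genes in each of the 8 libraries, in CPM on a log axis. The response median lies between 0.663 and 6.05 CPM in EHE6 and EHE17 and at 138 and 167 CPM in EHE26, where Irf7, Stat2 and Irf9 are also highest and Irf3 is not.

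For each line-dependent member the 5 genes with the most similar profile were found among the other tested genes, by the root mean square gap between centred log2 levels over the 8 libraries. Nearest to Stat2 were Trim21 (0.239), Tapbp (0.246), Parp12 (0.250), Irgm1 (0.316) and Tor3a (0.347). Nearest to Irf9 were Oas1c (0.304), Parp12 (0.324), H2-M3 (0.424), Irgm2 (0.428) and Hap1 (0.440). Nearest to Irf7 were Ifit3 (0.560), Gm7609 (0.627), Oasl2 (0.653), Mmp10 (0.674) and Oas1a (0.693). The gap between Stat2 and Irf9 themselves was 0.46, and those from Irf7 to Stat2 (2.03) and to Irf9 (2.28) were wider, and Irf7 spanned the larger range.

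Some markers of leukocytes were low and others were not, and lists for 2 other cell types were not low throughout. The summed level of 10 leukocyte markers was 20.1 to 34.1 CPM in EHE6, 27.6 to 70.3 CPM in EHE17 and 39.6 to 44.7 CPM in EHE26, and 0 of the 8 tested were called by edgeR, with 1 at an unadjusted p below 0.05 in EHE26 against EHE6. The T cell gene Cd3e had no reads in EHE26 and was at most 0.0269 CPM elsewhere, and Ptprc, the gene of CD45, ranged from 0.381 to 1.49 CPM over all libraries. By contrast, Lyz2 ranged from 13.7 to 37.2 CPM, with line means of 16.4, 25.8 and 32.2 CPM in EHE6, EHE17 and EHE26. Cd68 ranged from 1.39 to 29.5 CPM and was highest in EHE17 replicate 3. Of 8 genes of plasmacytoid dendritic cells, which make much type I interferon, the summed level was 221 to 446 CPM in EHE6, 346 to 613 CPM in EHE17 and 313 to 378 CPM in EHE26. Tcf4 (187 to 582 CPM) and Il3ra (line means of 23.3, 35.2 and 48.3 CPM) made up nearly all of it, and the other 6, Siglech among them, were at or below 0.607 CPM in every library. Siglech had no reads in EHE26. The summed level of 6 fibroblast markers was 270 to 433 CPM in EHE6, 995 to 1778 CPM in EHE17 and 215 to 897 CPM in EHE26, most of it Thy1 in every library but EHE6 replicate 3. Pdgfra, a growth factor receptor of fibroblasts, stood at 252 CPM in EHE6 replicate 3 and at 77.5 and 59.8 CPM in EHE26, against 1.14 to 5.21 CPM in the other 5 libraries. The list did not move together, and 3 of the 6 had a positive log2 fold change in EHE26 against EHE6. Line means in EHE6, EHE17 and EHE26 were 7.87, 5.67 and 0.130 CPM for Col1a2 and 1.64, 0.811 and 0.737 CPM for Lum. They were 12.8, 32.9 and 112 CPM for Dcn and 5.10, 4.31 and 6.38 CPM for Col1a1. In EHE6 replicate 3 Dcn stood at 0.966 CPM and Lum had no reads. Of the 4 tested dendritic cell genes and the 6 fibroblast genes, edgeR called 0 in any comparison, with 2 of each list at an unadjusted p below 0.05 in EHE26 against EHE6. The summed level of 10 endothelial markers was 2688 to 12479 CPM in EHE6, 6376 to 10544 CPM in EHE17 and 3915 to 4726 CPM in EHE26, and that of 8 proliferation genes was 481 to 2579, 348 to 1599 and 1273 to 1415 CPM. Their part in the differences of Irf7, Stat2 and Irf9 was not tested.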

How the data were processed

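Poly(A) RNA of 8 libraries of 3 mouse EHE cell lines was measured by RNA-seq. The authors deposited raw counts per Ensembl gene, as a series table and 1 table per sample, which were equal for all 8 samples. Alignment used HISAT2 on mm10, per the submitters' processing notes; its version, the counting tool and its strand setting are not given in the sources used here, so genes that overlap on opposite strands could share reads. Of 55401 identifiers, 55141 were found in GENCODE M21 (GRCm38), which gave symbols, coordinates and merged exon lengths.

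The 9 members and all gene lists were chosen with earlier results of these data known. Genes named besides members were the called genes of each list with the largest fold changes, up to 4, and some kinases, receptors, STATs, IRFs and regulators fixed by name; some genes of these lists are not reported here.

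Counts were filtered by filterByExpr, scaled by TMM and fitted in edgeR 4.0.16 (R 4.3.3) with 1 coefficient per line over all 8 libraries and the quasi-likelihood test, giving 18882 tested genes. P-values were adjusted by the Benjamini-Hochberg method. Standard errors were the log2 fold change divided by the root of F. Libraries of 44620965 to 96237665 counts, with a common biological coefficient of variation of 0.600, set the precision. The fit was also run on simulated counts with known changes between lines. Those counts held no library sets, so the run does not speak to the split of the libraries seen here. Alternatives were DESeq2 1.42.0, RLE size factors, no filter, only the 2 lines compared, the library set as a term, each set alone, the replicate number as a block, and each library left out. Deviations from the line mean were correlated between libraries of different lines. Same-numbered EHE6 and EHE17 libraries gave r = 0.13, 0.18 and 0.57. Differently numbered ones gave up to 0.54 (EHE6 replicate 1 with EHE17 replicate 2) and 0.62 (EHE6 replicate 2 with EHE17 replicate 1). Same-numbered EHE26 libraries gave 0.18 and -0.10 with EHE6, and -0.06 and -0.11 with EHE17. Such deviations cancel within each line and carry the split into sets, so these values cannot decide whether libraries were paired by number.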

Additional observations from a re-analysis of the deposited data

How the results depend on the processing

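The limits are few libraries, 2 of them for EHE26, a library set that holds every EHE26 library, and, for Ifnb1, depth. The first set alone, the type II list and the named pathway genes were tested in alternatives chosen after seeing the data. Each count below is of called genes, with the reported count first.

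In EHE17 against EHE6, members called were 0, with 1 by DESeq2. Pathway genes were 0, with 2 by DESeq2, 1 with the set as a term, 1 in the second set alone and 0 to 1 without a library. Type I response genes were 1, with 10 by DESeq2, 5 with no filter, 3 with the set as a term, 3 in the second set, 2 in the first set, 0 with only the 2 lines and 0 to 4 without a library. Type II response genes were 2, with 4 by DESeq2, 5 in the second set, 1 in the first set, 0 with only the 2 lines and 0 to 2 without a library.

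In EHE26 against EHE6, members were 3, with 1 when only the 2 lines were fitted and 1 to 4 without a library. Pathway genes were 3, with 5 by DESeq2, 5 with the set as a term, 5 in the second set and 2 to 6 without a library. Type I response genes were 20, with 10 to 25 without a library, and type II genes were 8, with 6 to 9. In EHE26 against EHE17, members were 2, with 1 with the set as a term, 3 by DESeq2, with no filter, with only the 2 lines, under the replicate block and in the second set, and 0 to 3 without a library. Pathway genes were 3, with 6 under the replicate block and 0 to 7 without a library. Type I genes were 16, with 0 to 24 without a library, and type II genes 6, with 0 to 8. Leaving out a library leaves fewer samples to fit, yet some counts rose without a library. The cause of these and the other shifts was not tested.

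The replicate block moved Irf9 in EHE26 against EHE17 to a call (1.79, adjusted p = 0.0258) and changed no other member's call. It kept the other calls, as in Irf7 (8.85, adjusted p = 0.00678) and Stat2 (3.89, 0.00355) of EHE26 against EHE6.

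Some small log2 fold changes, none of them called, changed sign. For EHE17 against EHE6, Ifnar1 ranged from -0.19 to 0.49 over the fits without a library. Oas3 was 0.11 under the block, 0.14 with the set as a term and 0.70 in the first set alone, and ranged from -0.60 to 0.93 without a library. For EHE26 against EHE6, Ifnar1 was -0.19 under the block, 1.16 with the set as a term and 1.44 in the second set, and ranged from -0.38 to 0.47 without a library, and Ifngr1 was -0.28 and ranged from -0.52 to 0.45. Irf3 was 0.34 with the set as a term and 0.64 in the second set, and ranged from -0.24 to 0.17. For EHE26 against EHE17, Ifnar1 was 0.85 with the set as a term and 0.61 in the second set, and ranged from -0.56 to 0.28. Ifnar2 was 0.54 and 0.29 in these fits, and ranged from -0.35 to 0.23. Ifngr1 ranged from -0.15 to 0.83, and Irf3 was 0.0010 with the set as a term.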

Other observations

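Irf8, an IRF best known from macrophages and dendritic cells, was not called in any comparison and had 1 very low library. It was read at 148, 129 and 5.21 CPM in EHE6, 105, 168 and 148 CPM in EHE17, and 152 and 55.5 CPM in EHE26. EHE6 replicate 3, the library low in Irf8, was also the lowest of all 8 in Ifnar1 (60.7 CPM), Ifnar2 (27.9 CPM) and Irf3 (49.6 CPM), and the highest of its line in Irf7, Stat2 and Irf9. In EHE17, replicate 3 was the lowest of its line in Ifnar1 (108 CPM) and Ifngr1 (28.9 CPM), and Irf8 was not low there.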
